A study of Mus musculus with 4 samples.

Results

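C1q-rich macrophages of the lung are cells with many transcripts of C1qa, C1qb and C1qc, the genes for the 3 chains of complement component C1q, and with the macrophage growth factor receptor Csf1r. They were chosen by raw counts of unique molecular identifiers (UMIs, each standing for 1 captured RNA molecule) in single cell RNA-seq libraries from lung. A barcode was a member when it held at least 500 UMIs with at most 20% from mitochondrial genes, at least 20 UMIs of C1qa, C1qb and C1qc together and at least 1 of Csf1r. The alveolar macrophage genes Siglecf, Krt79, Plet1 and Marco had to sum to fewer than 4 UMIs, and no UMI of Cd3e, Cd79a (T and B lymphocytes) or Cdh5 (endothelium) was allowed. The rule found 421 cells among 19798 lung barcodes, of 30943 barcodes in the 4 libraries of the study. Of these, 71 came from the TNF- lung and 350 from the TNF+ lung.

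The libraries compared mice carrying a human TNF transgene (TNF+), a model of inflammatory arthritis with lung disease, with littermates that did not carry it (TNF-). All were female C57BL/6 mice of 4 months, and viable cells of lung and of joint synovium were sorted after lysis of red blood cells. Each lung library pooled the cells of 3 to 5 mice of 1 genotype, so each genotype was measured once per tissue and no test between genotypes was possible; intervals below are 95% intervals that cover counting error only and leave out the differences between mice. The transcript of the human transgene is not in the mouse reference and was not measured.

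C1q is the recognition molecule of the classical complement pathway. It binds antibody complexes and dying cells, and in tissues it is made mainly by macrophages rather than by the liver. Lung macrophages are commonly divided into alveolar macrophages, which lie in the airspace and clear surfactant, and interstitial macrophages, which lie in the tissue and include cells with Lyve1 and Folr2 near vessels and cells with high MHC class II. CXCL13, a chemokine that draws B cells through the receptor CXCR5, is made by stromal cells of lymphoid follicles and, in inflamed tissue, by other cells.

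The 3 C1q genes are neighbours within 18675 bases of chromosome 4 (GRCm38, all on the minus strand), with C1qb at chr4:136880129-136886187, C1qc at chr4:136889804-136893065 and C1qa at chr4:136895917-136898803. Cxcl13, the named gene with the highest estimated TNF+ over TNF- ratio, lies at chr5:95956951-95961068 on the plus strand. The sequences shown are from RefSeq (GRCm38.p6) and run from 250 bases before to 50 bases after each gene's start as RefSeq places it, which is not the GENCODE start of the positions above. They are shown for C1qb and C1qc, whose UMIs choose the cells, and for Cxcl13. Capitals mark every match, on either strand, to GAGGAA, the core of sites for the macrophage factor PU.1 (Spi1), and to TGCTGA, a part of the sites for MAF proteins. The C1qb window is chr4:136886151-136886450 (minus strand), the C1qc window chr4:136892865-136893164 (minus strand) and the Cxcl13 window chr5:95956689-95956988 (plus strand).
C1qb: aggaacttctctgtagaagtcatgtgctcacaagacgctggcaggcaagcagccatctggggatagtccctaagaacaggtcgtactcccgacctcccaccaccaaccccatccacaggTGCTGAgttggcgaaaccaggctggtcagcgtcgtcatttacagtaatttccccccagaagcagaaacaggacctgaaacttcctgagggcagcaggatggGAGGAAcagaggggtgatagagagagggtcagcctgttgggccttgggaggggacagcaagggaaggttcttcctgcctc
C1qc: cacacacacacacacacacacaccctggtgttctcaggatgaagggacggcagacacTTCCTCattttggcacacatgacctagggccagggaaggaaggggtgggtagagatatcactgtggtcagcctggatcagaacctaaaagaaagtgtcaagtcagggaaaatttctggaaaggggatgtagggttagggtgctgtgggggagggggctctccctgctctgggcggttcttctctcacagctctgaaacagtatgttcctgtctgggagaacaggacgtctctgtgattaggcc
Cxcl13: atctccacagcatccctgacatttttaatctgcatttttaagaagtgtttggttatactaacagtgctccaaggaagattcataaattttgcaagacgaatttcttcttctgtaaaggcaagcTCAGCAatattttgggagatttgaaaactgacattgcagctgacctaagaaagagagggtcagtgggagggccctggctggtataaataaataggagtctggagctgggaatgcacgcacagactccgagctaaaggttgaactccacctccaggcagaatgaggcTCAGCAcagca
The C1qb window holds TGCTGA at bases 120 to 125 and GAGGAA at bases 221 to 226. In the C1qc window, GAGGAA is on the opposite strand (written TTCCTC) at bases 58 to 63. The Cxcl13 window holds TGCTGA on the opposite strand (TCAGCA) at bases 124 to 129 and 290 to 295. Such short matches are common, since 28.3% of 32851 mouse promoter windows of the same length hold GAGGAA and 19.5% hold TGCTGA on either strand. PU.1 and MAF factors were transcribed by members of both libraries, with Spi1 at 538 (TNF-) and 499 (TNF+) counts per 1000000 summed UMIs of the members (CPM), and Maf at 679 and 382 CPM.

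The members made up 0.851% of 8342 TNF- barcodes within the UMI and mitochondrial limits (0.665 to 1.07) and 3.16% of 11085 TNF+ barcodes (2.84 to 3.50). The libraries held 96120328 and 155989523 UMIs. A TNF- member had a median of 15829 UMIs (2187 to 50463) and a TNF+ member a median of 22438.5 (800 to 78790), so the fixed minimum of 20 C1q UMIs was easier to reach in TNF+. Among barcodes of at least 5000 UMIs, each first thinned to that number, 66 of 6045 TNF- (1.09%) and 395 of 8623 TNF+ barcodes (4.58%) met the rule. The limits on alveolar, lymphocyte and endothelial genes were also read from the thinned counts. Those limits are easier to pass after thinning, so these shares do not correct for depth alone. The median member held 165 C1q UMIs in TNF- (21 to 445) and 245.5 in TNF+ (20 to 1197), or 1.05% and 1.30% of its UMIs. Near the limit, 2 TNF- and 24 TNF+ members had 20 to 29 C1q UMIs, and 6 and 49 cells that met the other limits had 10 to 19. With a minimum of 10 or 40 C1q UMIs, the share was 0.923% or 0.779% in TNF- and 3.60% or 2.78% in TNF+. The TNF+ cells just inside held C1qa at 675 CPM and those just outside at 612 CPM. Summed over all members, C1qa came to 3914 (TNF-) and 4962 CPM (TNF+), C1qb at 3415 and 3844 CPM, and C1qc at 2395 and 2648 CPM; the rule used these genes, and the values are given as a description.

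The limit on alveolar genes acted on the TNF+ library only. It removed 249 of the 681 TNF+ cells that met the C1q and Csf1r limits and none of 88 in TNF-. These 249 cells were rich in C1qa (5278 CPM) and Cxcl13 (8392 CPM) and also held Marco (1087 CPM), a scavenger receptor, and Chil3 (649 CPM), a chitinase-like protein of alveolar macrophages, at a median of 30231 UMIs per cell. The boundary with them is not sharp, because 198 of the 350 TNF+ members had no UMI of the 4 alveolar genes, 152 had 1 to 3, and 18.0% of TNF+ T cell barcodes held at least 1 (3.60% in TNF-). Cxcl13 stood at 4779 CPM in the 198 members and at 5798 CPM in the 152. Of all 129650 Cxcl13 UMIs in the TNF+ lung, 33.7% were in the members and 50.1% in the 249 cells, while barcodes with 20 or more C1q UMIs together held 91.9%. In the TNF- lung, which had 162 Cxcl13 UMIs in all, the members held 32.1%. The members held 77.3% of C1qa UMIs in the TNF- lung and 41.9% in the TNF+ lung, where another 41.4% were in the 249 cells.

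Macrophage genes that the rule did not use were high in both libraries. Adgre1, which encodes F4/80, stood at 635 (TNF-) and 743 CPM (TNF+), the lysosomal marker Cd68 at 359 and 538 CPM, and Ms4a7 at 460 and 806 CPM. Of 12 macrophage markers, Lyz2, the lysozyme gene, was the only one past 2-fold, at 10335 and 26940 CPM, a log2 ratio (TNF+ over TNF-) of 1.38 (1.36 to 1.41). Cx3cr1, the fractalkine receptor and a marker of interstitial macrophages, was nearly equal at 700 and 681 CPM, and a UMI of it was found in 66.2% of TNF- and 73.9% of TNF+ members after thinning each cell to 3000 UMIs. Of 10 listed interstitial macrophage markers none was past 2-fold higher in TNF+, and 2, Cd163 and Fcrls, were lower (6.6% of all genes tested were). Their median log2 ratio was -0.52, against -0.08 over all genes tested. The macrophage markers thus fitted the label of these cells in both libraries, but Cxcl13, listed as a marker of these cells, was found in 6 of 71 TNF- members.

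Marker genes of other cell types were also found in the members. The 8 listed markers of classical monocytes summed to 1721 CPM in TNF- and 639 CPM in TNF+, and Ly6c2, which defines these monocytes, was at 248 CPM from 5 TNF- cells and at 12.8 CPM in TNF+. Nonclassical monocyte markers summed to 347 and 687 CPM, with 6 of 9 past 2-fold higher in TNF+ (5.55% of all genes tested were), among them Adgre4 at 32.1 and 193 CPM. Neutrophil markers summed to 123 and 561 CPM, but 87.1% of the TNF+ UMIs of S100a9 and 76.6% of those of S100a8 were in 1 cell. Plasma cell and B cell markers summed to 289 and 726 CPM, led by Igkc at 45.1 and 488 CPM, and Igkc was also found at 8.83 UMIs per TNF+ T cell barcode. Markers of endothelium summed to 122 and 52.8 CPM, of fibroblasts to 274 and 103 CPM, and of epithelium to 517 and 408 CPM. NK cell markers summed to 6.93 and 73.9 CPM, with 3 of 3 measured genes past 2-fold higher. Markers of platelets or red cells summed to 127 and 30.2 CPM, with 2 of 2 lower (6.6% of all genes tested were). The TNF+ and TNF- lung libraries shared 21 barcodes, none of them a member. No doublet caller was used for the main values; removing the barcodes with the highest Scrublet scores took away 7 of 71 and 28 of 350 members. The part of other cells, of depth and of free RNA in the differences given below was not tested.

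Over all members, 9888 genes had at least 50 UMIs. A gene was called when its summed CPM differed at least 2-fold, which held for 549 genes higher in TNF+ (5.55%) and 653 lower (6.6%), around a median log2 ratio of -0.08. A gene seen in few cells can pass this limit through 1 cell, because the TNF- library has 71 members, and the number of cells is therefore given with the values. The calls are descriptions of 2 libraries and not of the genotypes in general.

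Of the named genes higher in TNF+, Cxcl13 had the largest estimated ratio. Several intervals, such as that of Ip6k3 (3.00 to 10.80), reached past it, and Colq and Mucl1 gave only lower bounds. The TNF- members held 52 Cxcl13 UMIs in 6 of 71 cells (45.1 CPM). The TNF+ members held 43660 Cxcl13 UMIs in 276 of 350 cells (5238 CPM), a log2 ratio of 6.86 (6.47 to 7.28). After thinning to 3000 UMIs, 5.88% of 68 TNF- members and 49.3% of 337 TNF+ members held a UMI of Cxcl13. T cell barcodes, which should lack it, held one in 0 of 665 and in 20.3% of 869 cases, at 84.8 CPM in TNF+, so a single UMI in the TNF+ library did not set a member apart from free RNA. A minimum of 5 UMIs of 3000 did, since it was met by 39.2% of TNF+ members (132 of 337; 33.9 to 44.6), by 0.460% of TNF+ T cell barcodes and by 2 of 68 TNF- members. In 3000 UMIs the highest TNF+ member held 298 Cxcl13 UMIs. Macrophages of the alveolar type with fewer than 20 C1q UMIs had Cxcl13 at 38.9 CPM and classical monocytes at 67.6 CPM in the TNF+ lung, both below the T cell barcodes. Of all TNF+ alveolar macrophages, whatever their C1q, 127 of 767 (16.6%) met the minimum of 5 UMIs.

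**Figure D1:**
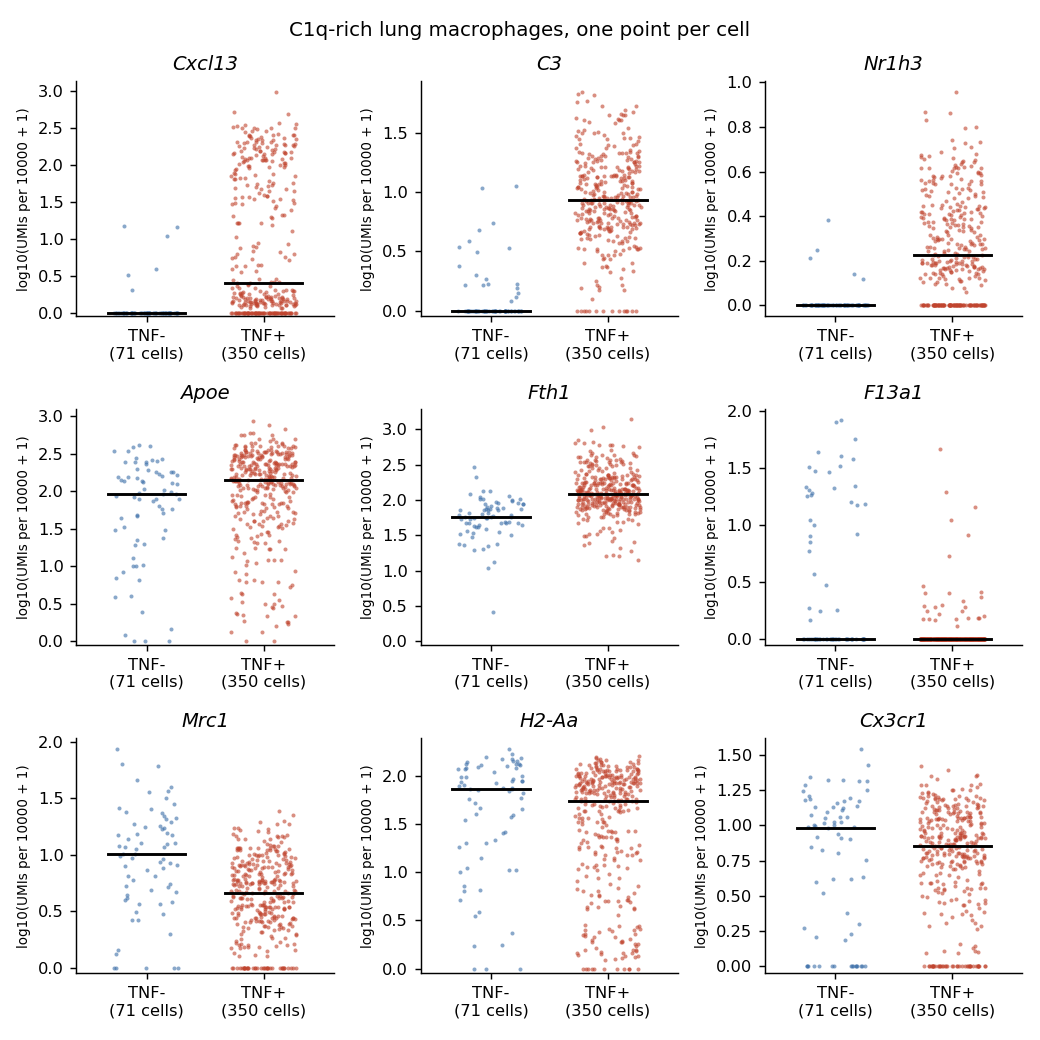
UMIs per 10000 plus 1 (log10 scale) of 9 genes in each C1q-rich macrophage, with 1 point per cell, 71 TNF- and 350 TNF+ cells, and a bar at the median. Cxcl13, C3, Nr1h3 and Fth1 are higher in TNF+ and F13a1 and Mrc1 lower, while the Cx3cr1 clouds overlap at 700 and 681 CPM.

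Further genes that were almost empty in TNF- members were transcribed by many TNF+ members. Colq, which encodes the collagen tail that anchors acetylcholinesterase, had 0 UMIs in TNF- and 1195 UMIs in 141 TNF+ cells (143 CPM), a log2 ratio of at least 5.79 against a floor of 3 UMIs over the TNF- group. Thinned, 25.5% of TNF+ members and 0.921% of TNF+ T cell barcodes held it, and 0 of 68 TNF- members, which allows a share of cells with a UMI of up to 4.41% (3 cells of 68; exact upper bound 5.28%). Colq also had 49.8% of its TNF+ UMIs in the 249 cells set aside for alveolar genes, and its UMIs in the TNF- lung (689 in all) lay wholly outside the members. Nr1h3, the gene of the oxysterol-sensing nuclear receptor LXR alpha, had 7 UMIs (6.06 CPM) in TNF- and 906 UMIs in 255 TNF+ cells (109 CPM), a log2 ratio of 4.16 (3.11 to 5.48). Thinned shares for Nr1h3 were 0% and 24.9%, with T cell barcodes at 0.301% and 0.921%. Myo10, an unconventional myosin of filopodia, was at 5.20 and 207 CPM (5.32; 266 TNF+ cells), and Slc1a3, a glutamate transporter, at 0.866 CPM from 1 UMI and 38.03 CPM (5.46; 2.97 to 10.76). Colq, Nr1h3 and Myo10 were thus spread over many TNF+ cells.

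The remaining named genes higher in TNF+ included secreted proteins, receptors and enzymes. Spp1, osteopontin, was at 6.06 and 353 CPM (log2 ratio 5.86), with 44.1% of the TNF+ UMIs in 1 cell. Lyz1, the second mouse lysozyme, was at 98.8 and 2726 CPM (4.79), and the 35 TNF+ cells with most of it held 79.1% of its UMIs. Il4i1, an amino acid oxidase that can restrain T cells, was at 1.73 and 47.4 CPM (4.77), and the formyl peptide receptor Fpr1 at 1.73 and 45.9 CPM (4.73). The inositol phosphate kinase gene Ip6k3 (0.866 and 39.0 CPM, 5.49; 3.00 to 10.80), the transporter Slc6a20a (0.866 and 27.0 CPM, 4.96; 2.47 to 10.27), the adhesion molecule Nectin2 (4.45; 1.95 to 9.76) and the calcium channel subunit Cacnb4 (4.36; 1.86 to 9.67) each rested on 1 UMI in TNF-. Retnlg (4.57; 2.08 to 9.89) had 95.3% of its TNF+ UMIs in 1 cell and Mucl1 (at least 4.08) 79.6%, so neither described the members in common.

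The genes lower in TNF+ were mostly seen in few TNF- cells. Of the 15 named, 10 had more than 50% of their TNF- UMIs in 1 member. Retnla, a resistin-like protein of alternatively activated macrophages, had 434 UMIs in 8 TNF- cells (376 CPM) and 10 UMIs in TNF+, a log2 ratio of -8.29, with 54.6% of the TNF- UMIs in 1 cell. F13a1, a coagulation factor subunit of resident macrophages and monocytes, was the broadest, with 955 UMIs in 32 of 71 TNF- cells (827 CPM) and 243 UMIs in 28 of 350 TNF+ cells (29.2 CPM), a log2 ratio of -4.83 (-5.04 to -4.62). After thinning, 36.8% of TNF- and 2.08% of TNF+ members held F13a1, against 0.1504% and 0.115% of T cell barcodes. The hyaluronan receptor Lyve1 was at 107 CPM from 12 TNF- cells and 4.68 CPM from 6 TNF+ cells (-4.51). Nes, nestin, had 45 UMIs in 17 TNF- cells and 10 UMIs in TNF+ (-5.02), Edil3 was seen in 15 TNF- cells (-4.87) and Afap1l1 in 20 (-4.40). Alox15, a lipoxygenase, had 71 UMIs in 3 TNF- cells and 0 in TNF+ (at most -7.42), and C4b was at 117 and 1.56 CPM (-6.23), with 54.8% of the TNF- UMIs in 1 cell. The same held for Hhip (95.7% in 1 cell) and Prg4 (2 cells).

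**Figure D2:**
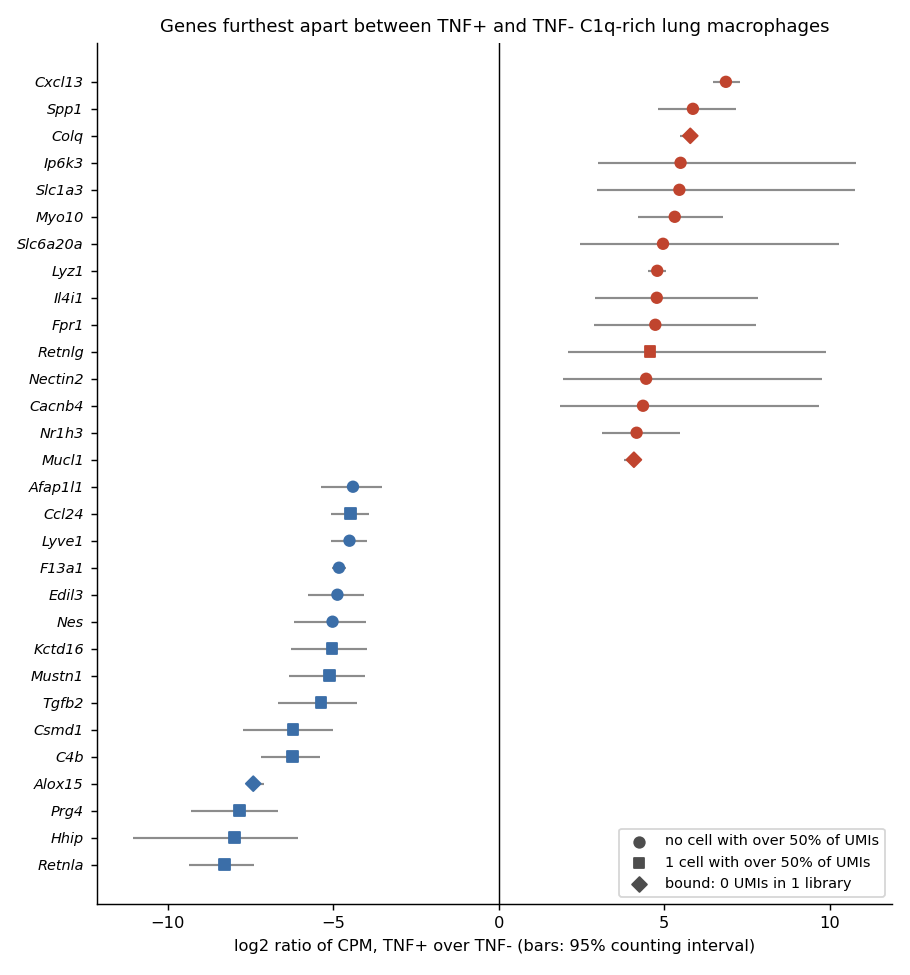
Log2 ratio of summed CPM, TNF+ over TNF-, of the 15 highest and 15 lowest named genes in C1q-rich macrophages, with 95% counting intervals (circle, no cell above 50% of the UMIs; square, 1 cell above 50%; diamond, bound against 3 UMIs). Cxcl13 stands at 6.86 and F13a1 at -4.83. In 10 of the 15 lower genes and 2 of the 15 higher, 1 cell held over 50% of the UMIs. Of these genes, Alox15 and Mucl1 are bounds and are drawn as diamonds, not squares.

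Of 17 measured complement genes other than C1q, 2 were past 2-fold higher and 2 lower in TNF+, with a median log2 ratio of -0.03. Beside this and the lists of the next paragraphs, 5.55% of all genes tested were higher and 6.6% lower, around a median of -0.08. C3, the protein on which the complement pathways meet, had 96 UMIs in 19 of 71 TNF- cells (83.2 CPM) and 8966 UMIs in 336 of 350 TNF+ cells (1076 CPM), a log2 ratio of 3.69 (3.40 to 4.00). It was the most widespread of these differences, found in 13.2% of TNF- and 83.4% of TNF+ thinned members against 0.752% and 9.78% of T cell barcodes. Members held 0.828% of C3 UMIs in the TNF- lung and 11.9% in the TNF+ lung. Cd55, which speeds the decay of C3 convertases, was at 10.4 and 69.1 CPM (2.73). Factor B (Cfb) was level at 101 CPM in each library. The receptors for C3a and C5a did not pass 2-fold, with C3ar1 at 343 and 201 CPM and C5ar1 at 289 and 231 CPM.

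Genes of lipid handling and lysosomes were higher in TNF+ in 9 of 21 cases and lower in 1, with a list median of 0.70. Fabp5, a fatty acid binding protein, was at 57.2 and 706 CPM (log2 ratio 3.63), and Gpnmb, a glycoprotein of lipid-laden macrophages, at 32.9 CPM in the TNF- members and 371 CPM, from 165 cells, in TNF+ (3.49). Thinned, 2.94% and 27.0% of members held Gpnmb. The proteases and lipases of the lysosome followed, with Ctsd (cathepsin D) at 651 and 2128 CPM (1.71), Lipa (acid lipase) at 137 and 322 CPM (1.23) and Ctsl at 177 and 378 CPM (1.10); Lipa and Ctsl were short of 2-fold when only cells with 200 to 5000 detected genes were kept. Ctsd and Fabp5 were concentrated, as the 35 TNF+ cells with most of each held 72.6% and 81.7% of the UMIs. Apoe, the lipoprotein that is among the most abundant transcripts of these cells, was at 10319 and 15423 CPM (0.58), and the lipid receptor Trem2 at 210 and 292 CPM (0.48), both short of 2-fold. The fatty acid transporter Cd36 was the gene lower in TNF+, at 367 and 125 CPM (-1.55).

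Iron genes were higher in 5 of 14 and lower in none, with a list median of 0.79. Fth1, the ferritin heavy chain, was at 6511 and 17722 CPM (1.44), and the median cell held 5705 and 12242 CPM, so the difference was not made by a few cells. Ferritin light chain Ftl1 was at 4248 and 8158 CPM (0.94). The copper-bearing ferroxidase ceruloplasmin (Cp) was at 122 and 460 CPM (1.91), the haem transporter Slc48a1 at 23.4 and 86.9 CPM (1.89), and haem oxygenase Hmox1 at 75.4 and 205 CPM (1.44). The siderophore binder Lcn2 had no UMI in TNF- and 23.6 CPM in TNF+ (at least 3.18), and with the level of T cell barcodes taken off it gave no ratio, since both libraries were then at the floor.

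Of the targets and regulators of NF-kB, the pathway through which TNF receptors signal, 6 of 18 were higher and none lower. They were the inhibitor Tnip1 (39.0 and 138 CPM, log2 ratio 1.83), the mitochondrial superoxide dismutase Sod2 (107 and 371 CPM, 1.80), Tnfaip2 (101 and 339 CPM, 1.75), Bcl3 (19.1 and 59.4 CPM, 1.64), the subunit Relb (68.4 and 183 CPM, 1.42) and the inhibitor Nfkbia (372 and 782 CPM, 1.07), which alone of the 6 lost 2-fold under an alternative, when the rule was applied after thinning. The TNF receptors themselves were at 101 and 70.2 CPM for Tnfrsf1a and at 146 CPM in each library for Tnfrsf1b. Mouse Tnf was at 111 and 64.1 CPM (-0.79), Il1b at 148 and 95.1 CPM (-0.64) and Il10 at 45.9 and 24.6 CPM (-0.90). Among 13 cytokine genes none was past 2-fold higher, and the B cell survival factor Tnfsf13b (BAFF) was the 1 past 2-fold lower, at 65.8 and 26.9 CPM (-1.29). Tnfsf13 (APRIL), its relative, was at 56.3 and 108 CPM (0.94).

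Interferon-stimulated genes were lower in 8 of 15 and higher in none, with a list median of -1.12. Ifi27l2a was at 580 and 163 CPM (-1.83), while Ly6e was at 574 and 1070 CPM (0.90). The antiviral enzyme Rsad2 (-2.55) and the guanylate binding proteins Gbp5 (-1.70) and Gbp2 (-1.42) belonged to the lower genes. Rsad2, Gbp2, Isg15 and Ifit1 were short of 2-fold under some alternatives, among them the rule after thinning. Cxcl9, a T cell chemokine that interferon gamma induces, was at 228 and 41.9 CPM (-2.44), and Cxcl10 at 124 and 92.3 CPM (-0.43). Among the 8 chemokine genes that act on lymphocytes, 3 were higher: Cxcl13, Ccl8 at 180 CPM in 14 TNF- cells and 768 CPM in 219 TNF+ cells (2.09), and Ccl17 (at least 1.81), for which 1 cell held 90.8% of the UMIs. Among 12 chemokine genes that act on monocytes and neutrophils, 2 were higher and 3 lower, with Cxcl3 having 0 UMIs in TNF- and 150 UMIs in TNF+ (at least 2.79, a bound that was lost when only cells with 200 to 5000 detected genes were kept), Ccl4 lower (-2.37) and Ccl2 at 121 and 75.1 CPM.

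Of the 17 function lists, resident tissue macrophage genes had the lowest median, -2.17, and 11 of 16 were lower. The haemoglobin scavenger receptor Cd163 was at 174 CPM in 30 of 71 TNF- cells and 8.88 CPM in 20 of 350 TNF+ cells (-4.29), and thinned shares were 26.5% and 2.37%. The mannose receptor Mrc1 was at 1151 and 456 CPM (-1.33), with 905 and 357 CPM in the median cell. The carbonyl reductase Cbr2 was at 141 and 19.3 CPM (-2.87) and the lectin Clec10a also lower (-1.88). Folr2, a folate receptor, was at 161 and 91.4 CPM (-0.82), Pf4 at 1315 and 860 CPM (-0.61), Igf1 at 324 and 249 CPM (-0.38) and the scavenger receptor Stab1 at 438 and 417 CPM (-0.07), all short of 2-fold. Fcrls, another gene of interstitial macrophages, was at 204 and 53.1 CPM (-1.94).

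Receptors that take up dying cells and antibody complexes were lower in part. Among 13 uptake genes 3 were lower and none higher: the phosphatidylserine receptor Timd4 (53.7 and 9.72 CPM, -2.47) and the bridging ligands Gas6 (179 and 60.2 CPM, -1.57) and Pros1 (113 and 52.3 CPM, -1.11). With no alveolar gene UMI allowed, Timd4 and Pros1 were short of 2-fold. Their receptors Mertk (-0.58) and Axl (-0.45) did not pass 2-fold. Of 6 Fc receptor genes, Fcgr4 (60.7 and 13.1 CPM, -2.21) and the recycling receptor Fcgrt (233 and 71.3 CPM, -1.71) were lower, and the shared signalling chain Fcer1g was at 1506 and 1683 CPM (0.16).

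Antigen presentation genes were abundant in each library and differed little for the main chains. H2-Aa was at 6796 and 5113 CPM (-0.41), H2-Ab1 at 5487 and 4314 CPM (-0.35) and the invariant chain Cd74 at 17753 and 13099 CPM (-0.44). Of the 14 genes listed, 4 were lower, among them their regulator Ciita (186 and 92.6 CPM, -1.01) and the costimulator Cd86 (363 and 180 CPM, -1.01), which both lay at the limit and lost 2-fold under several alternatives. The checkpoint ligand Cd274 (PD-L1) was the 1 higher, at 54.6 and 175 CPM (1.68).

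Matrix genes split by member. The membrane metalloprotease Mmp14 was at 84.9 CPM in 34 of 71 TNF- cells and 381 CPM in 326 of 350 TNF+ cells (2.16), and Mmp9 at 42.5 and 181 CPM (2.09). Fibronectin (Fn1) was at 529 and 84.9 CPM (-2.64), and Mmp12, the macrophage elastase, at 353 and 234 CPM (-0.59). In all, 4 of 14 matrix genes were higher and 2 lower.

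Transcription factors other than Nr1h3 that were higher were Spic (9.53 and 44.5 CPM, 2.22), a factor of macrophages that recycle iron, St18 (163 CPM in 22 TNF- cells and 367 CPM in 238 TNF+ cells, 1.17), Bhlhe41 (1.47) and Tfec (1.08). With Nr1h3, 5 of 18 were higher, and Id3 was lower (-1.37). St18 and Tfec were short of 2-fold with free RNA taken off, and St18 also with an alveolar sum of 0. Tfec and Bhlhe41 were short of it with the rule after thinning, Tfec also with a C1q minimum of 10 UMIs and Bhlhe41 also with 200 to 5000 detected genes. Of 11 cell cycle genes 5 were higher, among them Top2a (6.93 and 31.3 CPM, 2.18) and Mki67 (16.5 and 43.7 CPM, 1.41). Thinned, a UMI of Mki67 was found in 1.47% of TNF- and 8.61% of TNF+ members, against 3.16% and 5.41% of T cell barcodes, so Mki67 UMIs were not limited to the members. A UMI of Top2a was found in 1.47% of TNF- and 2.08% of TNF+ members, below the 6.32% and 6.33% of T cell barcodes. Birc5, Ube2c and Rrm2, the other cell cycle genes called, were short of 2-fold or gave no ratio under some alternatives. Of 18 immediate early genes, which cell isolation can induce, none was higher and 3 were lower, including Egr1 (133 and 27.7 CPM, -2.27), with Fos at 602 and 574 CPM. Of 16 glycolysis genes only Aldoa passed 2-fold, at 196 and 407 CPM (1.06). Aldoa was short of 2-fold with a C1q minimum of 10 UMIs, with the rule after thinning and with no limit on Cd3e, Cd79a and Cdh5.

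**Figure D3:**
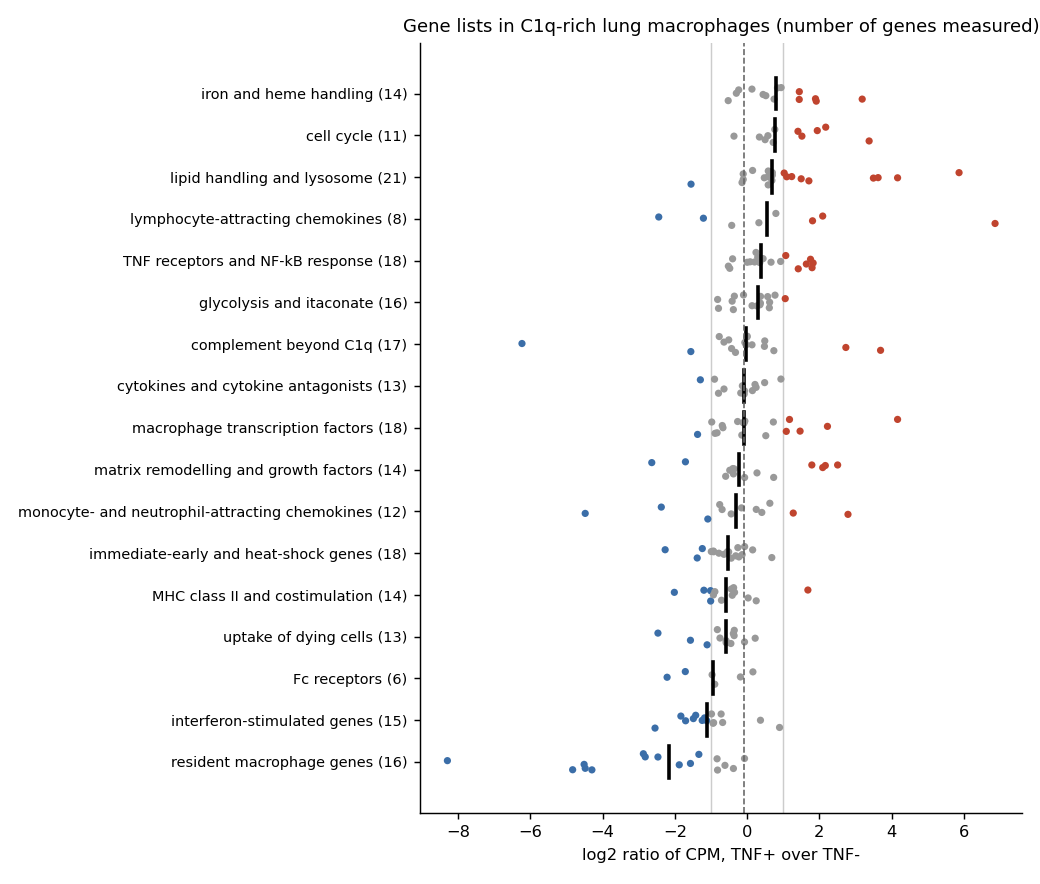
Log2 ratio of summed CPM, TNF+ over TNF-, for each measured gene of 17 lists in C1q-rich macrophages, with the list median as a black bar, the median of all genes (-0.08) as a dashed line and genes past 2-fold in colour. The resident macrophage list (median -2.17) and the interferon list (-1.12) lie lowest, and the iron (0.79), cell cycle (0.77) and lipid and lysosome (0.70) lists highest.

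Within the TNF+ lung the members differed widely in Cxcl13 and were divided by its level. The 132 members with at least 5 Cxcl13 UMIs of 3000 were compared with the other 205 members of 3000 UMIs or more. This split was chosen after the data were seen and uses Cxcl13 itself, so the genes that differ are a description. Depth was alike, with medians of 22146 and 23060 UMIs per cell, and 10 members held 3 to 6 Cxcl13 UMIs, near the limit. The 132 cells held 42799 Cxcl13 UMIs (14539 CPM) and the 205 cells 466 (86.8 CPM), close to the 84.8 CPM of T cell barcodes. The median Cxcl13-high cell had 11940 CPM and the median other cell 35.4 CPM.

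Several macrophage genes were higher in Cxcl13-high cells. Of 9524 genes with at least 50 UMIs over the 337 cells, 2.98% were at least 2-fold higher in them and 4.68% lower. Of 12 resident macrophage genes 3 were higher and 2 lower, and of 14 interferon-stimulated genes 5 were higher and none lower. C1qa, which the rule used, was at 7542 CPM in the median Cxcl13-high cell and 3386 CPM in the median other cell, Ms4a7 at 1061 and 348 CPM, and Apoe at 21319 and 8272 CPM. Summed over cells, Stab1 was at 713 and 255 CPM (log2 ratio 1.48) and Folr2 at 154 and 56.6 CPM (1.44). The 2 lower resident genes were Timd4, at 1.02 and 14.5 CPM (-3.83), and F13a1, at 16.6 and 36.1 CPM (-1.12). The chemokine Ccl8 was at 1521 and 328 CPM (2.21) and found in 114 of 132 and 97 of 205 cells, and its neighbour Ccl12 was at 349 and 81.6 CPM (2.10). Slc1a3 (82.2 and 13.8 CPM, 2.58), Cd55 (142 and 28.7 CPM, 2.31), Colq (274 and 72.1 CPM, 1.93), ceruloplasmin (Cp, 747 and 304 CPM, 1.29) and Il10 (41.8 and 15.3 CPM, 1.45) were also higher in these cells. Fscn1, an actin bundling protein also known from dendritic cells, was at 164 and 38.2 CPM (2.11).

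The other members held the genes of classical monocytes, of which 6 of 6 were at least 2-fold lower in Cxcl13-high cells. The matrix genes were split, with 2 of 13 higher and 5 lower in Cxcl13-high cells, and Mmp9 stood at 289 CPM in them and 123 CPM in the other cells (1.24). Mmp12 was at 3.40 CPM in Cxcl13-high cells and 361 CPM in the other cells (-6.73), found in 9 of 132 and 60 of 205 cells. The monocyte chemokine receptor Ccr2 was at 7.81 and 277 CPM (-5.15; 8 and 97 cells), and Fn1 at 6.45 and 128 CPM (-4.31; 18 and 78 cells). Itgax (CD11c) was at 19.4 and 228 CPM (-3.56), Adgre4 at 48.2 and 273 CPM (-2.50) and Ccl6 at 52.3 and 1230 CPM (-4.56). Of 21 genes of lipid handling and lysosomes 8 were lower in Cxcl13-high cells and none past 2-fold higher, though Apoe was at 22663 and 11436 CPM (0.99). The lower ones included Spp1 at 11.2 and 542 CPM (-5.60), Fabp5 at 121 and 1029 CPM (-3.09), Ctsd at 631 and 2953 CPM (-2.23) and Gpnmb at 122 and 509 CPM (-2.06). Lyz1, which is outside this list, was at 514 and 3948 CPM (-2.94). For Ctsd the median cells were close, at 535 and 669 CPM, so the sum was set by a minority of cells. The split itself placed Cxcl13. The UMIs of Fabp5, Spp1 and Gpnmb, also higher in TNF+ members as a whole, lay mostly in the other cells. These sums too were set by few cells. In TNF+, 1 member held 44.1% of the Spp1 UMIs, and the 35 members with most held 81.7% of Fabp5 and 78.1% of Gpnmb UMIs. A UMI of Spp1 was found in 22 of 132 Cxcl13-high and 82 of 205 other cells.

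Other genes were less than 2-fold apart between Cxcl13-high and other TNF+ members. Nr1h3 was at 110 and 108 CPM in Cxcl13-high and other cells (0.03), C3 at 1369 and 919 CPM (0.57), H2-Aa differed by 0.08, Cd74 by 0.01, Mmp14 by -0.05 and Mki67 by -0.04 on the log2 scale. Marco, which the rule limits, was at 29.2 and 15.3 CPM (0.94, with an interval of 0.48 to 1.39), and was found in 53 of 132 and 54 of 205 cells. Chil3 had median cells at 64.9 and 56.1 CPM. Over the 337 thinned TNF+ cells, Spearman's rho with Cxcl13 was 0.54 for C1qa, 0.40 for Apoe, 0.40 for Ms4a7, 0.21 for C3, 0.01 for Trem2 and -0.09 for Gpnmb. The cells share 1 library and its free RNA, and the coefficients are given as a description.

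**Figure D4:**
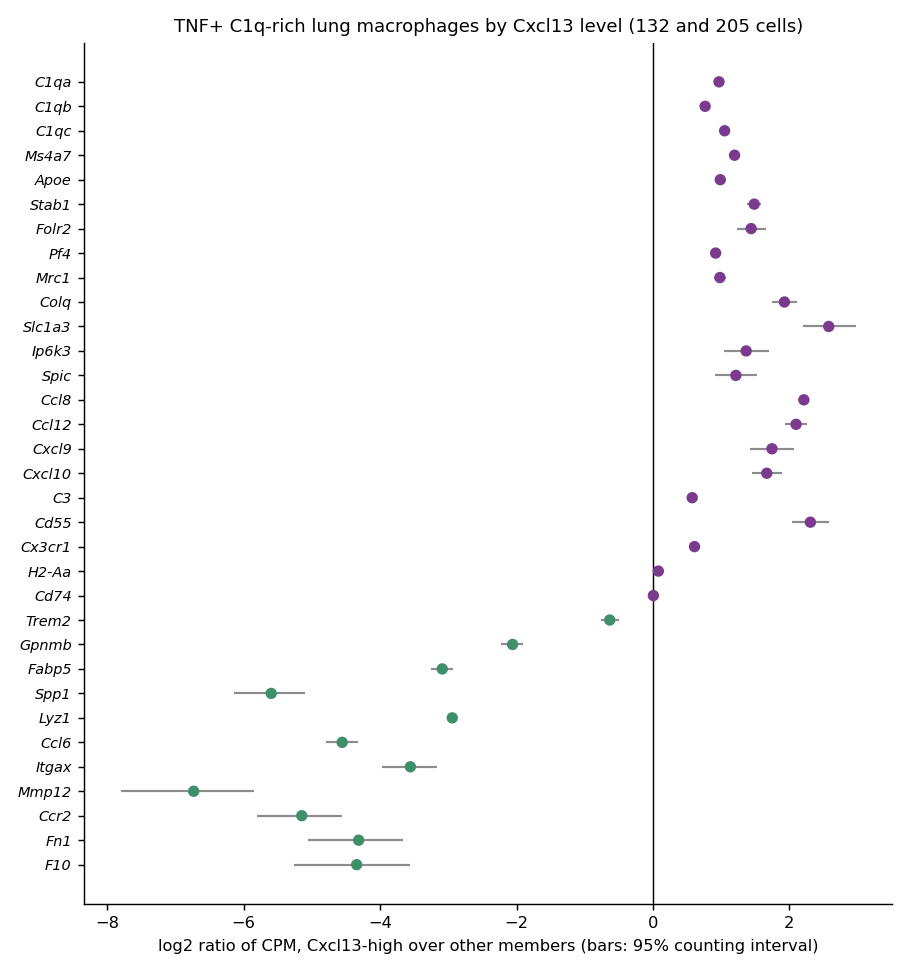
Log2 ratio of summed CPM, 132 Cxcl13-high over 205 other TNF+ C1q-rich macrophages, for the genes shown, with 95% counting intervals. Slc1a3 (2.58), Cd55 (2.31) and Ccl8 (2.21) lie to the right, Mmp12 (-6.73), Spp1 (-5.60) and Ccr2 (-5.15) to the left, and Cd74 (0.01) at the centre. For Spp1, 1 TNF+ member held 44.1% of the UMIs.

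Lyve1 and Folr2 mark the perivascular kind of interstitial macrophage. After thinning, 13 of 68 TNF- members (19.1%; 10.6 to 30.5) and 63 of 337 TNF+ members (18.7%; 14.7 to 23.3) held a UMI of either gene, against 0.301% and 0.345% of T cell barcodes, and the intervals overlap widely. Folr2 was found in 19.1% and 18.4% of members, 13 of the 13 positive TNF- cells and 62 of the 63 positive TNF+ cells. Lyve1 was found in 8.82% of TNF- and 0.890% of TNF+ members.

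In the TNF- lung, several resident macrophage genes and Ccl8 were at higher CPM in the 13 Lyve1 or Folr2 positive cells. F13a1 was at 3244 CPM in them and 286 CPM in the other 55 cells (log2 ratio 3.50), Cd163 at 565 and 86.4 CPM (2.71), Ccl8 at 791 and 8.53 CPM (6.53) and Retnla at 1442 and 139 CPM (3.38). For Retnla, 1 TNF- member held 54.6% of the UMIs. Pf4 was at 3742 and 765 CPM (2.29), Gas6 at 628 and 72.5 CPM (3.11) and Mrc1 at 2784 and 780 CPM (1.84). The 55 other cells were rich in antigen presentation and monocyte genes, with Cd74 at 7172 CPM in the positive and 20041 CPM in the other cells (-1.48), H2-Aa at 3431 and 7508 CPM (-1.13), Ccr2 at 105 and 580 CPM (-2.46) and Cd9 at 28.8 and 732 CPM (-4.67). Fn1 (650 CPM) and Mmp12 (434 CPM) had no UMI in the positive cells. Cx3cr1 was shared by both kinds, at 680 and 706 CPM.

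In the TNF+ lung the same split was shallower for most of these genes. Cd163 was at 41.1 CPM in the 63 positive and 1.76 CPM in the 274 other cells (4.54) and F13a1 at 131 and 6.62 CPM (4.31), so the ratios were large but the levels in positive cells were below those of the TNF- lung. Mrc1 was at 758 and 391 CPM (0.96), Stab1 at 781 and 337 CPM (1.21) and Gas6 at 145 and 41.5 CPM (1.81). Ccl8, which in TNF- lay almost wholly in positive cells, was at 1261 CPM in positive and 637 CPM in other TNF+ cells (0.98). Cxcl13 was at 6563 and 4904 CPM (0.42), and so was not confined to Folr2 cells. Haem oxygenase Hmox1 was at 532 and 128 CPM (2.06). Retnla had 0 UMIs in the 63 positive TNF+ cells and 10 in the others. H2-Aa differed by -0.44, and Mmp12 (39.1 and 278 CPM, -2.83), Fabp5 (147 and 832 CPM, -2.50) and Ccr2 (49.7 and 211 CPM, -2.09) lay with the other cells, as in the Cxcl13 split.

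The same rule applied to the synovium, the lining of the joints, found 79 TNF- and 202 TNF+ cells, whose libraries are separate but come from mice of the same genotypes. Of 7399 genes with at least 50 UMIs there, 9.8% were at least 2-fold higher in TNF+ and 16.5% lower. Of 238 list genes with 50 UMIs in both tissues, 34 were past 2-fold higher in both, 24 lower in both and 7 in opposite directions. Cxcl13 had 1 UMI in TNF- and 591 UMIs in TNF+ synovial cells (158 CPM; log2 ratio 7.77, 5.28 to 13.07), a level well below the 5238 CPM of the TNF+ lung. C3 (3.46), Fabp5 (4.91), Spp1 (4.92), Mmp14 (3.93) and Ccl8 (2.64) were higher in TNF+ synovium as in lung, and Lyve1 (-5.88) and Retnla (-4.76) were lower. Colq, with 0 and 2 UMIs, was hardly found in synovium. F13a1 was at 450 and 246 CPM there (-0.87), a smaller difference than in lung.

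Alveolar macrophages with fewer than 20 C1q UMIs, 337 in the TNF- and 620 in the TNF+ lung, were set beside the members; the C1q limit kept all 337 TNF- but 620 of 817 TNF+ alveolar macrophages. C3 was at 110 and 503 CPM in them (log2 ratio 2.19) against 3.69 in C1q-rich macrophages, Fabp5 at 299.7 and 1201 CPM and Lyz1 at 10.5 and 305 CPM (4.86). Nr1h3 was at 43.3 and 62.2 CPM (0.52), Gpnmb at 71.9 and 63.9 CPM (-0.17) and Colq at 0.223 and 1.87 CPM. Of 13004 genes with 50 UMIs in all alveolar macrophages, whatever their C1q, 5.61% were at least 2-fold higher and 11.8% lower in TNF+. None of these differences between cell kinds was tested, because each kind comes from the same pair of libraries.

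**Figure D5:**
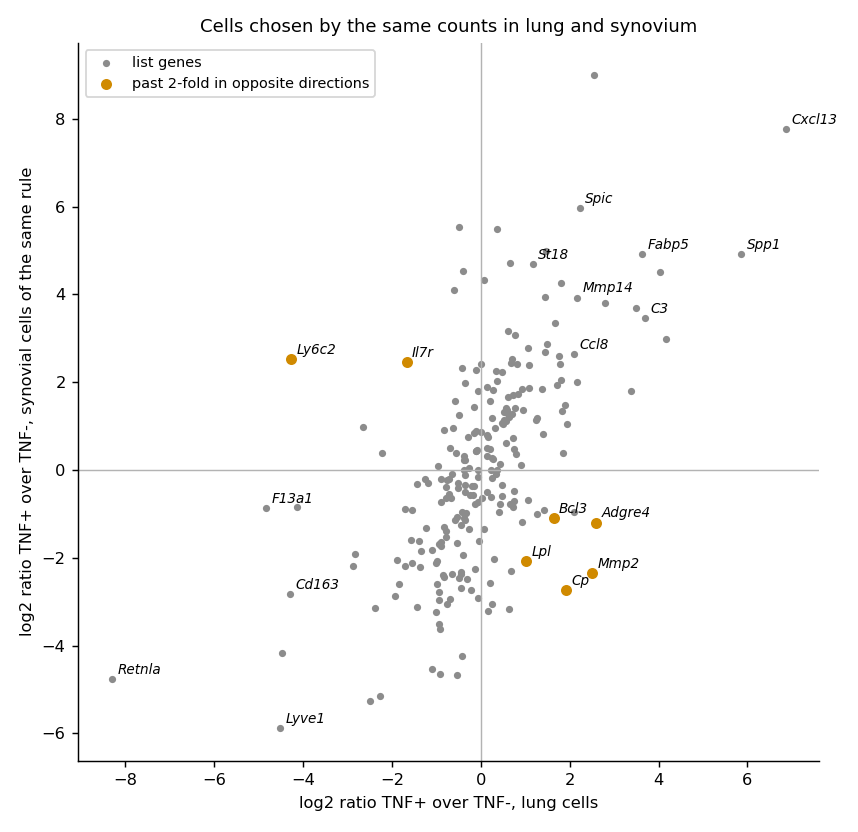
Log2 ratio of summed CPM, TNF+ over TNF-, for 238 list genes in C1q-rich macrophages of the lung (x axis) and in synovial cells of the same rule (y axis), with 7 genes past 2-fold in opposite directions in orange. Cxcl13 lies at the upper right (6.86 and 7.77), and Cp (1.91 and -2.73) and Ly6c2 (-4.27 and 2.52) are among the orange points.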

How the data were processed

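Per the labels and the study's methods, viable cells of lung and synovium were loaded on the 10x Genomics platform, and the authors deposited filtered matrices of raw counts of UMIs per gene and barcode, made with Cell Ranger 7.0.1 on mm10. Counts were used as deposited. Barcodes with at least 500 UMIs and at most 20% mt- UMIs were kept, with no upper limit on genes, and members were found by the rule on raw UMIs. UMIs were summed over members and scaled to CPM, and genes with at least 50 UMIs over both libraries were compared by the log2 ratio, TNF+ over TNF-, with a conditional binomial 95% interval; a count of 0 was set to 3 UMIs over the group and the ratio given as a bound. With 1 library per group there was no test. Shares have exact (Clopper-Pearson) intervals, and cells were thinned to 3000 UMIs for shares, which left out 3 TNF- and 13 TNF+ members. T cell barcodes gave the level of free RNA. Besides the genes of fixed lists, the text names the 15 highest and 15 lowest genes among those with 30 UMIs or more in the higher library and 3 times as many UMIs per member as per T cell barcode there, leaving out the genes of the rule and mitochondrial, ribosomal, haemoglobin, immunoglobulin, T cell receptor, unnamed genes and Xist. Members and lists were chosen with earlier results of these data known. The Cxcl13 split, the alternatives without the alveolar limit, without the lymphoid and endothelial limits and without the member with most UMIs of a gene were chosen after seeing the data. Some genes of the lists are not reported here. Positions are from GENCODE vM21 and promoter sequences from RefSeq. Analyses used Python 3.11.15, numpy 2.4.6, scipy 1.17.1, pandas 2.3.3, scanpy 1.11.5 (Scrublet) and matplotlib 3.10.9, and the comparison was tested on simulated counts.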

Additional observations from a re-analysis of the deposited data

Results flagged for a closer look

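Among 238 list genes with 50 UMIs or more in both tissues, 7 were past 2-fold in one direction in the C1q-rich macrophages of the lung and past 2-fold in the other direction in synovial cells of the same rule. Over all genes tested, 5.55% were past 2-fold higher and 6.6% lower in lung, and 9.8% and 16.5% in synovium. The difference was not tested, since each tissue had 1 library per genotype. The log2 ratio, TNF+ over TNF-, was 2.59 in lung and -1.20 in synovium for Adgre4, an adhesion receptor of nonclassical monocytes, and 1.64 and -1.10 for Bcl3, a nuclear partner of NF-kB. Ceruloplasmin (Cp) stood at 1.91 and -2.73, lipoprotein lipase (Lpl) at 1.03 and -2.08, and the metalloprotease Mmp2 at 2.51 and -2.35. In lung, Lpl was short of 2-fold under several alternatives, among them the rule after thinning and an alveolar sum of 0. The opposite order held for the interleukin receptor Il7r, at -1.67 and 2.46, and for the monocyte antigen Ly6c2, at -4.27 and 2.52. In lung, Ly6c2 came from 5 TNF- cells.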

How the results depend on the processing

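No paired analysis was possible because each group had 1 library. Of 108 values under alternatives, 84 stayed close to the main value and 24 moved. Single genes were followed for 147 genes only and not for all genes called. Of these, 105 were past 2-fold, and 70 of the 105 were past it in all 16 alternatives run for each. The TNF- share was 1.09% under the rule after thinning. The TNF+ share was 3.60% with 10 C1q UMIs, 2.78% with 40, 4.58% after thinning, 3.62% with 2000 UMIs, 2.16% with 200 to 5000 detected genes, 1.79% with an alveolar sum of 0, 4.88% with no alveolar limit and 3.90% with no limit on Cd3e, Cd79a and Cdh5. Genes higher numbered 364 with 200 to 5000 detected genes, 1956 with free RNA taken off, 831 without the top member and 252 at a gene minimum of 200 UMIs. Genes lower numbered 1298 with free RNA taken off, 1128 at a minimum of 20 UMIs and 266 at 200. List genes lower (40) numbered 65 with free RNA taken off and 25 at 200 UMIs. The subtraction of free RNA used T cell barcodes and so also took off genes that T cells themselves transcribe, and the gene minimum set the number of genes tested (11681 and 6260). Calls were higher in TNF+ in 45.7% of cases, 63.7% without the top member, 60.1% with free RNA taken off and 51.8% with median-of-ratios scaling (608 higher, 565 lower). The setting without the top member leaves out 1 of 71 TNF- but 1 of 350 TNF+ members for each gene. By its design it can take a larger part off the TNF- sums. The Lyve1 or Folr2 share without thinning was 36.6% in TNF- and 40.6% in TNF+, and in TNF+ it was 13.02% with an alveolar sum of 0, 23.3% with no alveolar limit, 14.6% with no limit on Cd3e, Cd79a and Cdh5 and 10.9% thinned to 1000 UMIs. The Cxcl13-high TNF+ share was 49.3% at 1 UMI and 34.4% at 10. Among the genes followed, log2 ratios turned sign for Mustn1 (0.25 after thinning, 0.28 with Scrublet, 0.15 without the top member), Rrm2 (-0.56 by mean CPM per cell) and Mmp19 (-0.33 with 200 to 5000 genes). For 19 values no ratio was given, because both libraries were at the floor of 3 UMIs or a bound had no sign; they belong to Retnlg, Hhip, Prg4, Alox15, Csmd1, Mustn1, Cxcl3, Rrm2, Id3, Il7r, Lcn2 and Ube2c. The followed genes that lost 2-fold under some alternative were Aldoa, Atf3, Bhlhe41, Birc5, Ccl4, Cd86, Ciita, Csmd1, Ctsl, Cxcl12, Cxcl3, Gbp2, H2-DMb2, Ifit1, Isg15, Lipa, Lpl, Mmp19, Mustn1, Nfkbia, Pros1, Rrm2, Rsad2, St18, Tfec, Tgfb2, Timd4 and Ube2c. For these moves the cause was not tested. With 71 TNF- members, genes at a few UMIs in all are not resolved there.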
